A study of Homo sapiens with 6 samples.

Results

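The genes described here are those that carry gemcitabine into a cell, convert it to its active form, inactivate it, or are the enzymes it acts on: SLC29A1, SLC29A2, SLC28A3, DCK, CDA, DCTD, RRM1, RRM2, RRM2B and SAMHD1. They were chosen by name for these roles, with earlier results of these data known, and make up 10 of the 20461 genes in the deposited RNA-seq table. All 10 were found by their Ensembl identifiers. The cells were PANC1, a human pancreatic carcinoma line, so every group comes from a single cell line. In RNA-seq, 2 libraries came from cells given vehicle (0.1% DMSO) and 2 from cells given 50 nM gemcitabine, each for 48 h, and the study calls the libraries of a condition biological replicates. DNaseI-seq, which maps open chromatin, was made once for vehicle and once for 50 nM gemcitabine. Its sample labels hold no treatment time, and the paper states that the conditions were those of the RNA-seq.

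Gemcitabine is a cytidine analogue with fluorine atoms on its sugar. As a hydrophilic nucleoside it enters cells through nucleoside transporters, and deoxycytidine kinase then adds the phosphate that commits it to activation. Its diphosphate inhibits ribonucleotide reductase, the enzyme that makes deoxynucleotides from ribonucleotides, and its triphosphate is built into DNA and blocks synthesis. Cytidine deaminase removes most of the drug by converting it to the uridine analogue, and low uptake, low kinase, high deaminase and high reductase are the classical routes by which pancreatic cancer cells are known to become less sensitive.

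The RNA-seq libraries held 15153598 and 15766232 fragments on protein-coding genes for vehicle and 13194535 and 13275474 for gemcitabine. A gene without a fragment could still have had up to 3, which stood for 0.190 to 0.227 CPM (counts scaled to a common library size), for counting error only. The epithelial keratin genes KRT8, KRT18 and KRT7 and the mesenchymal gene VIM were all abundant, with vehicle means of 486, 346, 1604 and 417 FPKM. FPKM is fragments scaled to transcript length and library size, the scale on which levels of different genes are compared here. The ductal keratin KRT19 was low, at 45 and 45 fragments in vehicle and 94 and 88 after gemcitabine. Of 7 markers of other cell types, 6 were in the table. CD3E, PRSS1 and INS had 0 fragments in every library and PTPRC had 2 to 9, whereas the collagen gene COL3A1 was high in all 4 libraries and the macrophage and lysosome gene CD68 went from 133 and 154 fragments to 238 and 269. The summed level of these 6 was 496 to 592 FPKM in vehicle and 593 to 717 FPKM after gemcitabine, and the part of this in the results below was not tested. Nearly all of the sum was COL3A1, at 486 and 581 FPKM in vehicle and 573 and 693 FPKM after gemcitabine.

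After 48 h of gemcitabine the RNA of both equilibrative nucleoside transporters was lower, that of the deaminase CDA was higher, and that of the activating kinase DCK and of the reductase subunit RRM2 did not pass the test. With edgeR's quasi-likelihood test, 9 of the 10 genes could be tested, since SLC28A3 had too few fragments. To be called, a gene had to reach an adjusted p under 0.05 and a change of more than 1.5-fold, with a mean of 0.1 FPKM or more in a condition and means that differ by 1 FPKM or more. By this rule 1 of the 9 was called higher (CDA), where 5.69% of all 14854 tested genes were, and 2 were called lower (SLC29A1 and SLC29A2), where 4.42% were, or 10.1% in either direction. With the adjusted p alone, 4 were higher against a background of 18.5% and 2 were lower against 20.0%, or 38.5% in either direction. Counts this small among 9 genes say nothing about the genes as a group, and the results below are those of single genes. The scaled counts of the conditions did not overlap for 4 genes that were higher and 3 that were lower, against 35.0% and 34.7% of all tested genes. Over the 9 genes the log2 fold changes had a median of 0.025, beside 0.0069 over all tested genes. In RNA from a whole culture, fewer cells that express a gene and less RNA per cell cannot be told apart.

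**Figure D1:**
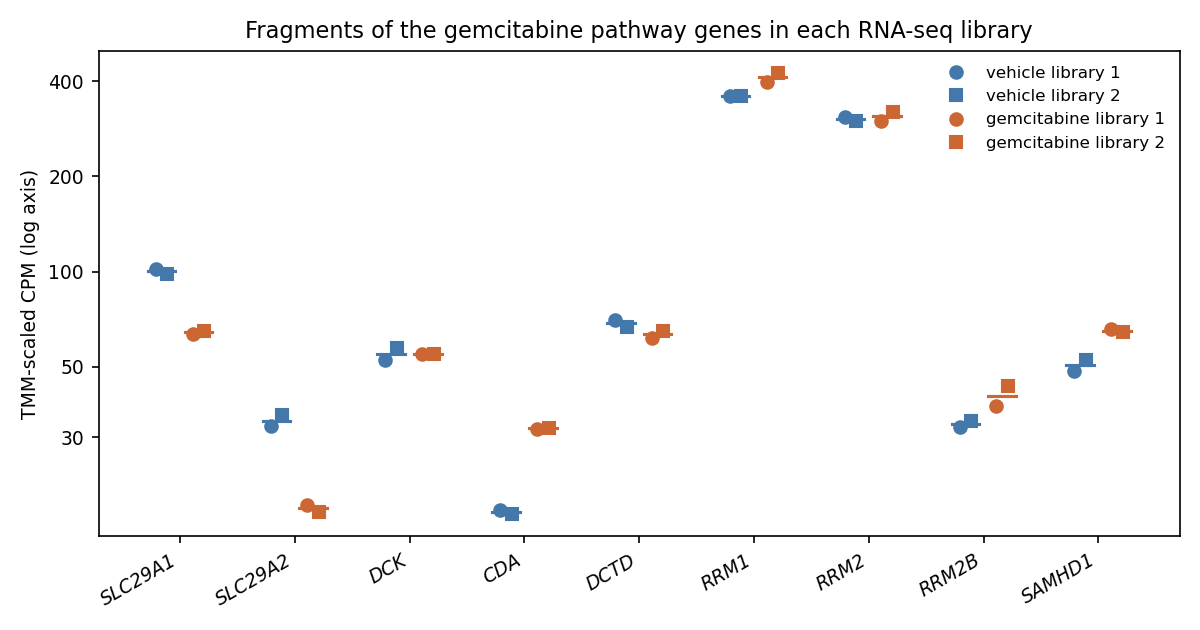
Counts of the 9 tested genes as CPM after TMM scaling (log axis) in each of the 4 RNA-seq libraries, with a line at the mean of each condition. SLC29A1 and SLC29A2 lie lower in both gemcitabine libraries and CDA higher, while the points of DCK and RRM2 overlap between the conditions.

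On the vehicle FPKM scale the reductase genes RRM2 and RRM1 stood highest. RRM2 stood at 270.0 ± 19.8 FPKM (SD, n = 2) and RRM1 at 198 ± 9.82 (SD, n = 2), which placed them at ranks 447 and 657, where 13816 genes reached 0.1 FPKM. The length that turned fragments into FPKM was 1.04 and 1.13 kb for RRM2 in vehicle, where its annotated coding transcripts span 3.24 to 3.67 kb, and 1.69 and 1.82 kb for RRM1, where they span 2.08 to 3.14 kb. These spans are from a later annotation than the one behind the FPKM. The order of RRM2 and RRM1 rests on these lengths, since RRM1 had more fragments in every library. DCTD followed at 55.5 ± 0.709 and SLC29A1 at 46.5 ± 2.28 (SD, n = 2). DCK at 26.9 ± 8.27, CDA at 24.0 ± 0.093 and RRM2B at 22.7 ± 11.2 FPKM (SD, n = 2) were neighbours in this order that did not differ beyond their spread. SLC29A2 at 11.7 ± 0.056 and SAMHD1 at 10.5 ± 0.343 FPKM (SD, n = 2) were the lowest of the tested genes. SLC28A3 was listed at 0 and 0.0018 FPKM in vehicle. After gemcitabine DCK could no longer be placed in this order, since its values of 45.2 and 91.2 FPKM lay on either side of DCTD's 50.2 and 48.8.

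Uptake was examined in 3 transporter genes. SLC29A1 encodes the equilibrative transporter ENT1, the main route of gemcitabine entry, and lies on chromosome 6 of hg19 from 44187290 to 44201879 on the plus strand. Vehicle libraries held 1485 and 1502 of its fragments, and gemcitabine libraries 880 and 887. Both gemcitabine libraries were far below both vehicle libraries, and the replicates of each condition were within a few percent of each other. After TMM scaling of the libraries the level fell to 64.0% of vehicle, a log2 fold change of -0.64 ± 0.069 (SE, 95% interval -0.79 to -0.50, edgeR adjusted p = 6.10e-06). With library totals in place of TMM scaling it was -0.53, under the required fold, so that the gene was then not called, and the adjusted p was 5.55e-05. That scaling moved the median log2 fold change of all genes from 0.0069 to 0.12, and the calls over all genes from 845 higher and 656 lower to 1164 higher and 418 lower.

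The 250 bases before the SLC29A1 start are printed because this gene is the main entry route and fell. The sequence is RefSeq's (GRCh38.p14, chr6:44223345-44223594, plus strand), reads 5′ to 3′, and matched hg19 exactly once, at chr6:44191082-44191331. Capitals mark matches, on either strand, to any of 6 motifs searched: the GC box GGGCGG, the CCAAT box CCAAT, an E2F site TTTNNCGC, an AP-1 site TGANTCA, an interferon-response-like site (GAAA, any pair of bases, GAAA) and a TATA box TATAAA, where N is any base and no motif contains another.
SLC29A1: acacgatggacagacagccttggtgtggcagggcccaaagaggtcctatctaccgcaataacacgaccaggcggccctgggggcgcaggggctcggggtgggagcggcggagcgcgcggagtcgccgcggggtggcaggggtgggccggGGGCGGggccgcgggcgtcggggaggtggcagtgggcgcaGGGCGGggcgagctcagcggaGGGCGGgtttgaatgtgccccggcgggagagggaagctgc
All 3 matches are GC boxes, the motif bound by SP1, at 101, 61 and 40 bases before the start. Of 35116 promoter windows of this length in the table, 42.6% hold a GC box, so its presence here is common. The window is 74.4% G and C, more than 88.4% of promoters.

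SLC29A2 encodes ENT2, the second equilibrative transporter, which also carries nucleobases, on chromosome 11 from 66129992 to 66139685 on the minus strand. Its fragments went from 473 and 535 in vehicle to 255 and 237. Both gemcitabine libraries were well below both vehicle libraries, which differed from each other more than the gemcitabine libraries did. The level fell to 52.9% of vehicle, a log2 fold change of -0.92 ± 0.098 (SE, 95% interval -1.13 to -0.71, edgeR adjusted p = 5.89e-06). The intervals of the fold changes of SLC29A1 and SLC29A2 overlap. Within each library, the number of SLC29A2 fragments per SLC29A1 fragment was 0.319 and 0.356 in vehicle and 0.290 and 0.267 after gemcitabine. An exact permutation test of 2 libraries against 2 cannot give a two-sided p below 0.333, which is the value here and for every ratio below. When limma was run on log2(FPKM + 1) in place of the count test, both transporters missed the threshold, with adjusted p-values of 0.0508 for SLC29A1 and 0.0514 for SLC29A2.

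SLC28A3 encodes the concentrative transporter CNT3, which couples nucleoside entry to sodium, on chromosome 9 from 86890372 to 86955673. It had 0 and 2 fragments in vehicle and 0 and 4 after gemcitabine. These are at or near the limit of 3 fragments, so the gene was not tested and no change was detectable at this depth.

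The enzymes that activate and inactivate the drug come next. DCK, the kinase that adds the first phosphate to gemcitabine and limits its activation, lies on chromosome 4 from 71858255 to 71896631 on the plus strand. It had 766 and 873 fragments in vehicle and 764 and 748 after gemcitabine. These are rounded, since Cuffdiff estimated how ambiguous reads were shared. After scaling, the gemcitabine libraries (55.0 and 54.9 CPM) lay inside the range of the vehicle libraries (52.7 and 57.3 CPM). The log2 fold change was -0.0012 (95% interval -0.17 to 0.16, edgeR adjusted p = 0.992). The annotation of DCK overlaps that of MOB1B, a kinase activator of the Hippo pathway, which had 739 and 847 fragments in vehicle and 738 and 862 after gemcitabine. In each library the fragments of the pair add up to a whole number, 1505 and 1720 in vehicle and 1502 and 1610 after gemcitabine, of which DCK was given 50.9%, 50.8%, 50.8% and 46.5%. The values of DCK therefore rest in part on how shared reads were divided, and how many were shared is unknown. The share given to DCK was lower in gemcitabine replicate 2 than in the other libraries. Whether this came from the division or from the RNA of either gene was not tested. The sum was 104 and 113 CPM in vehicle and 108 and 118 CPM after gemcitabine, so it overlapped between the conditions as well.

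CDA, cytidine deaminase, the enzyme that inactivates gemcitabine, lies on chromosome 1 from 20915579 to 20945396 on the plus strand. It had 257 and 261 fragments in vehicle and 443 and 437 after gemcitabine, although the gemcitabine libraries were smaller. The replicates of each condition differed by only a few fragments, and the conditions did not come near each other. The rise was 1.84-fold (95% interval 1.59 to 2.12), a log2 fold change of 0.88 ± 0.096 (SE, edgeR adjusted p = 7.29e-06). In FPKM the mean went from 24.0 ± 0.093 to 46.2 ± 0.792 (SD, n = 2).

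Promoter windows of DCK and CDA are shown side by side because DCK switches the drug on and did not pass the test, and CDA switches it off and rose. Both are RefSeq's 250 bases before the start (GRCh38.p14, chr4:70993399-70993648 and chr1:20588847-20589096, both plus strand), in the format used above, and each matched hg19 once, at chr4:71859116-71859365 and chr1:20915340-20915589.
DCK: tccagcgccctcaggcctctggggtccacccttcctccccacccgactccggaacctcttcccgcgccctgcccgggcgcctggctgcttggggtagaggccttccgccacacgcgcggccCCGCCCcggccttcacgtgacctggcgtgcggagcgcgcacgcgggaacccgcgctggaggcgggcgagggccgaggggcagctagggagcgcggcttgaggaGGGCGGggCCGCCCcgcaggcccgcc
CDA: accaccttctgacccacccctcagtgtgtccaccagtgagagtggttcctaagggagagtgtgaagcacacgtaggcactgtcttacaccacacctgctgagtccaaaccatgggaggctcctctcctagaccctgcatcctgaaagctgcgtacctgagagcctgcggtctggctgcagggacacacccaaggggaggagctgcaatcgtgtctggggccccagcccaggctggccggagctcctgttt
The DCK window is 78.0% G and C, with GC boxes at 129, 26 and 18 bases before the start. The CDA window is 60.4% G and C, near the middle of all promoters (55.0% of them have less), and holds none of the 6 motifs, which says only that these letters are not in this window.

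DCTD, deoxycytidylate deaminase, acts one step later on the monophosphate and feeds thymidylate synthesis. It lies on chromosome 4 from 183811213 to 183839089 on the minus strand and had 1019 and 1022 fragments in vehicle and 857 and 884 after gemcitabine. After scaling, its gemcitabine values (61.7 and 64.9 CPM) were just below its vehicle values (70.1 and 67.1 CPM), without overlap. The log2 fold change of -0.12 did not pass the test (95% interval -0.27 to 0.039, edgeR adjusted p = 0.228). With library totals it was -0.0056.

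Ratios between these genes within a library do not depend on how libraries are scaled. For every 1 fragment of DCK there were 0.336 and 0.299 fragments of CDA in vehicle and 0.580 and 0.584 after gemcitabine, a 1.84-fold higher ratio. CDA per fragment of the transporter SLC29A1 went from 0.173 and 0.174 to 0.503 and 0.493, a 2.87-fold higher ratio, which was the largest of the 8 ratios computed. CDA per fragment of the other deaminase, DCTD, went from 0.252 and 0.255 to 0.517 and 0.494. SLC29A1 per fragment of DCK stood at 1.94 and 1.72 in vehicle and at 1.15 and 1.19 after gemcitabine. Every ratio to DCK rests in part on its division of reads with MOB1B. In all 8 ratios the conditions did not overlap, each with an exact permutation p of 0.333 (two-sided, and 0.333 after Benjamini-Hochberg adjustment over the 8), the smallest that 2 against 2 libraries allow.

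**Figure D2:**
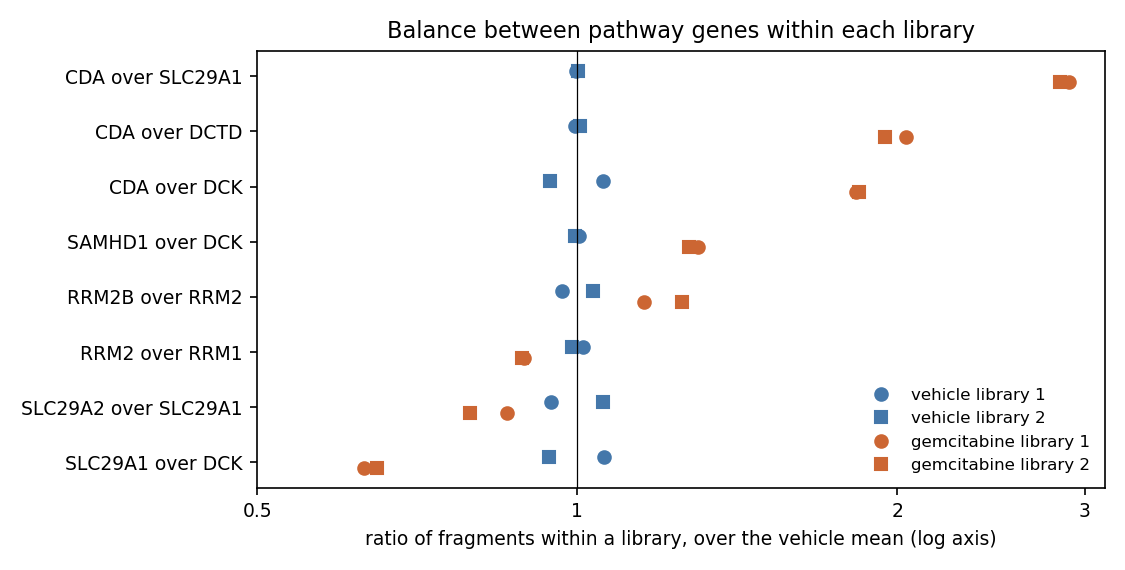
Ratio of the fragments of a pair of genes within each RNA-seq library, divided by the mean of that ratio in the vehicle libraries (log axis), for 8 pairs. The ratio of CDA to SLC29A1 was 2.87-fold higher after gemcitabine, and that of SLC29A1 to DCK was the lowest relative to vehicle.

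The targets, the subunits of ribonucleotide reductase, changed little. RRM1 encodes the large subunit, which holds the catalytic site that gemcitabine diphosphate inactivates, on chromosome 11 from 4115937 to 4160162. It had 5233 and 5464 fragments in vehicle and 5521 and 5788 after gemcitabine. After scaling, the vehicle libraries (360 and 359 CPM) were nearly equal and both gemcitabine libraries (398 and 425 CPM) were above them. The log2 fold change was 0.19 ± 0.066 (SE, 95% interval 0.053 to 0.34, edgeR adjusted p = 0.0308), short of the fold needed for a call. The adjusted p depended on the vehicle libraries, since it was 0.197 without vehicle replicate 1 and 0.205 without vehicle replicate 2, at log2 fold changes of 0.20 and 0.20. In each of these fits the lone vehicle library was assumed to vary like the gemcitabine libraries.

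RRM2 encodes the small subunit of dividing cells, which carries the tyrosyl radical and is made mainly in S phase, on chromosome 2 from 10260825 to 10351851. It had 4480 and 4569 fragments in vehicle and 4159 and 4346 after gemcitabine. The scaled values, 308 and 300.0 CPM in vehicle and 299.6 and 319 after gemcitabine, overlapped. Its log2 fold change was 0.025 (95% interval -0.12 to 0.17, edgeR adjusted p = 0.799), and it turned to -0.019 without gemcitabine replicate 2. Within each library the fragments of RRM2 per fragment of RRM1 went from 0.856 and 0.836 to 0.753 and 0.751.

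The RRM2 promoter window is shown for its repeated CCAAT boxes, the motif bound by NF-Y (RefSeq, GRCh38.p14, chr2:10122489-10122738, plus strand, matched once on hg19 at chr2:10262616-10262865).
RRM2: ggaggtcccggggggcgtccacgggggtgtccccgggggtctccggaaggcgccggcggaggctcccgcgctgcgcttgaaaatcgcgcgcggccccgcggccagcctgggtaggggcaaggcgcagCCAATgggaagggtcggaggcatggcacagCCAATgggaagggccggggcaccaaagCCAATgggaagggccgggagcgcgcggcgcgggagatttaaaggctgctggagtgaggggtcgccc
The boxes lie 123, 93 and 66 bases before the start, and the same 13 letters, CCAATgggaaggg, occur at all 3. A CCAAT box on either strand is in 32.0% of promoters, and 3 or more are in 2.93%. Among the 7 genes with an entry in the table, RRM1 and SAMHD1 also hold a CCAAT box, and DCK, DCTD, RRM1 and SLC29A1 hold a GC box. None of the 7 holds the E2F, AP-1, interferon-response-like or TATA letters, which are in 5.92%, 6.57%, 3.02% and 10.7% of promoters. SLC29A2, SLC28A3 and RRM2B have no entry there.

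RRM2B encodes the alternative small subunit p53R2, which p53 induces after DNA damage and which supplies resting cells, on chromosome 8 from 103216730 to 103251189. It had 471 and 514 fragments in vehicle and 523 and 593 after gemcitabine. The scaled gemcitabine values, 37.7 and 43.5 CPM, were above the vehicle values of 32.4 and 33.7 CPM. It changed by a log2 fold of 0.30 ± 0.092 (SE, 95% interval 0.098 to 0.49, edgeR adjusted p = 0.0201), under the fold needed for a call. The adjusted p was 0.176 without vehicle replicate 1, 0.117 without vehicle replicate 2, 0.103 without gemcitabine replicate 2 and 0.0917 with DESeq2. The fragments of RRM2B per fragment of RRM2 went from 0.105 and 0.112 to 0.126 and 0.136. On the FPKM scale the level of RRM2 was well above that of RRM2B in every library of both conditions.

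SAMHD1 hydrolyses deoxynucleoside triphosphates and is best known for protecting resting immune cells from retroviruses. It lies on chromosome 20 from 35518632 to 35580296 on the minus strand, where its annotation overlaps TLDC2, a gene with 5 to 7 fragments in any library. SAMHD1 had 708 and 800 fragments in vehicle and 912 and 876 after gemcitabine. Both gemcitabine libraries had more fragments than either vehicle library even before scaling. This gave a log2 fold change of 0.36 ± 0.075 (SE, 95% interval 0.20 to 0.52, edgeR adjusted p = 0.00166), a 1.28-fold rise that was under the limit of 1.5. Without vehicle replicate 1 the adjusted p was 0.0670 at a log2 fold change of 0.31, and limma on log2 FPKM with a pseudocount gave adjusted p-values of 0.0780 to 0.121 over its 4 settings. Per fragment of DCK there were 0.925 and 0.916 fragments of SAMHD1 in vehicle and 1.19 and 1.17 after gemcitabine.

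For DCK and RRM2B the deposited FPKM gave another picture than the fragments. DCK stood at 32.7 and 21.0 FPKM in vehicle and 45.2 and 91.2 after gemcitabine, a ratio of means of 2.54, although its fragments hardly moved. With limma on log2(FPKM + 1) its log2 fold change was 1.26, with an adjusted p of 0.159. Cuffdiff sums FPKM over the isoforms of a gene, so the value depends on how reads were divided among transcripts of different lengths. Dividing fragments by FPKM and by the size of the library gives a nominal length behind each value. It need not be that of a real transcript. The annotated transcripts given beside it are those of a later Gencode annotation than the one behind the FPKM. For SLC29A2 it was 2.69 to 3.07 kb, above the longest annotated coding transcript of 2.51 kb, and for SAMHD1 it reached 4.93 kb, where the longest was 4.65 kb. For RRM2, RRM1 and CDA it was below the shortest in every library. For DCK this length was 1.54 and 2.63 kb in vehicle and 1.28 and 0.62 kb after gemcitabine, and its annotated coding transcripts span 0.43 to 2.61 kb. For RRM2B it was 2.10 and 1.06 kb in vehicle and 1.42 and 2.60 kb after gemcitabine, and the FPKM of 14.8 and 30.6 against 28.0 and 17.2 varied more within the conditions than between them. The largest length was 4.26 times the smallest for DCK and 2.45 times for RRM2B, where the median was 1.16 times over 11143 genes with at least 50 fragments in every library. Only 0.278% of these genes varied more than DCK and 1.27% more than RRM2B. The called genes SLC29A1 and CDA had steady lengths (1.04 times each), with FPKM ratios of 0.684 and 1.93 beside fold changes of 0.640 and 1.84. SLC29A1 was not called with limma on log2(FPKM + 0.1). Its log2 fold change there was -0.55, under the required fold, at an adjusted p of 0.0464. In fragments with library totals it was -0.53, also under that fold. The median over all genes was 0.12 in both of these settings, against 0.0069 with TMM scaling. The unit and the scaling were not separated for this gene. For RRM1 the FPKM ratio was 1.34 and the fold change in fragments 1.14.

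**Figure D3:**
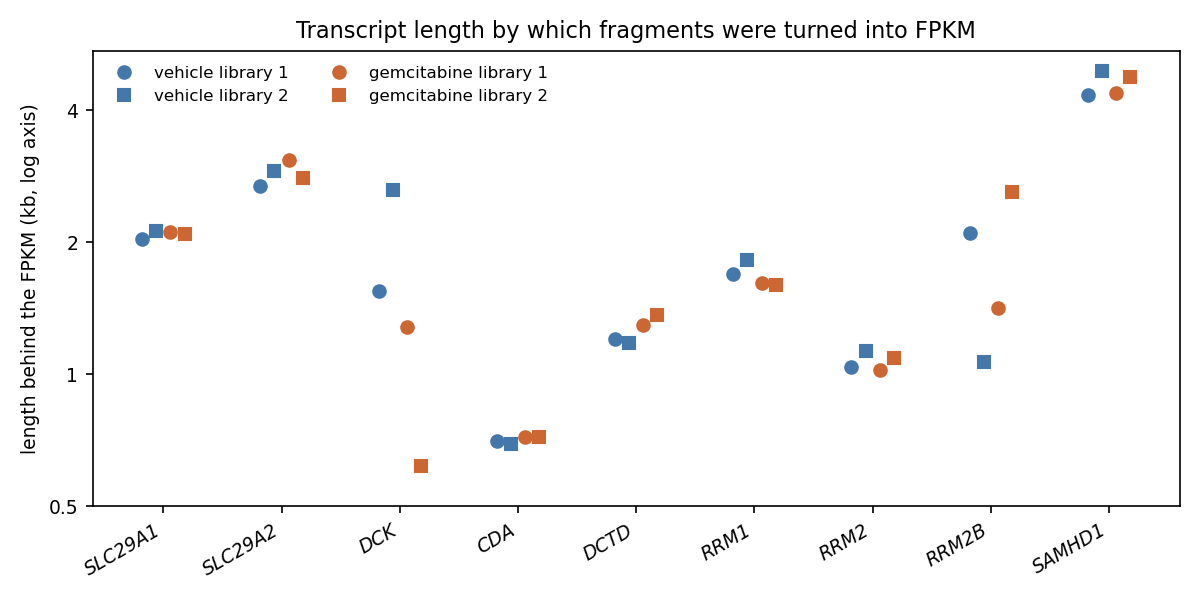
Nominal length in kb (log axis) by which the fragments of each tested gene were turned into FPKM in each RNA-seq library. The points of DCK spread from 0.62 to 2.63 kb and those of RRM2B from 1.06 to 2.60 kb, while those of SLC29A1 and CDA lie close together.

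Open chromatin at the starts of these genes was read from the DNaseI peaks, with 1 library per condition and hence no test. The libraries gave 9606 peaks for vehicle and 10695 for gemcitabine. A peak within 1 kb of the start was present for 3 of the 10 genes in vehicle (DCK, RRM2B and SAMHD1), where 25.1% of tested genes had one, and for 4 in gemcitabine (the same genes and SLC29A2), where 29.0% had one. These shares are near the background. Within 5 kb, 4 of the 10 had a peak in vehicle and 5 in gemcitabine, RRM2 being the addition, against 28.5% and 33.1%. Peaks at a p-value of 1e-10 or less lay within 1 kb for 2 and 3 of the 10, against 7.37% and 8.96%. At DCK the peak reached from 71858689 to 71859683 in vehicle and from 71858643 to 71859737 in gemcitabine, and it covered the whole sequence printed above. At SAMHD1 it reached from 35579654 to 35580845 and from 35579502 to 35580915. At RRM2B it reached from 103250593 to 103252271 and from 103250822 to 103251913.

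The start of SLC29A2 was the only one of the 10 with a peak in 1 list alone. The gemcitabine peak, chr11:66138872-66139917, had a score of 149.5 (log10 of the peak's p-value, multiplied by minus 10), and the nearest vehicle peak was 26.3 kb away. The RNA of SLC29A2 was lower in that condition. A peak that is not listed may lie just under the threshold, and the depth of these libraries is unknown. CDA, whose RNA rose, had no peak within 5 kb in either list, and the nearest, 24.4 and 24.2 kb downstream of the start, were in both. The starts of SLC29A1, RRM1, DCTD and SLC28A3 also had none within 5 kb. At RRM2 the peak of both lists lay 1.65 and 1.89 kb upstream of its main start and overlapped the most upstream annotated start of the gene.

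**Figure D4:**
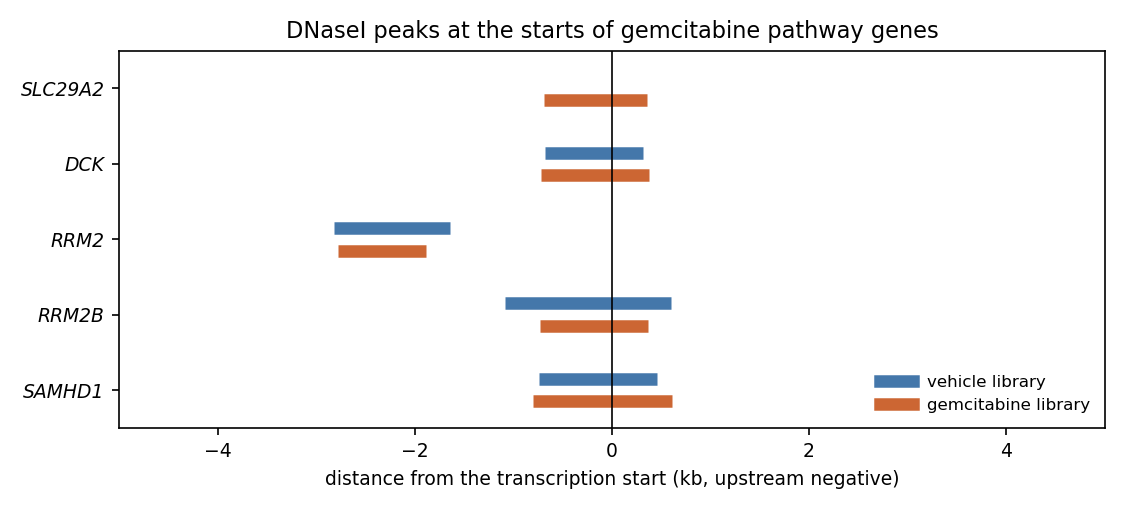
DNaseI peaks within 5 kb of the main transcription start of the 5 genes that have one, as bars from the start to the end of the peak, against the distance from the transcription start in kb, for the vehicle and the gemcitabine library. At SLC29A2 only the gemcitabine list holds a peak.

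Other genes of the pathway were read from 5 lists of 44 genes, of which 41 were tested, 1 was called higher and 5 lower, where 5.69% and 4.42% of all tested genes were. Among other nucleoside transporters and drug efflux pumps, 1 of 8 tested was called, the lysosomal and mitochondrial transporter SLC29A3, which went from 125 and 92 fragments to 60 and 66 (log2 fold change -0.67, edgeR adjusted p = 0.0209). The remaining equilibrative family member, SLC29A4, which mainly carries monoamines, had 83 and 102 fragments in vehicle and 99 and 115 after gemcitabine and did not pass the test (log2 fold change 0.33, edgeR adjusted p = 0.168). It is named after its values were seen. SLC28A2 had 0 fragments in every library. With the adjusted p alone, 1 gene of this list was higher, against 18.5% of all tested genes, and 1 lower, against 20.0%. These were the efflux pump ABCC3 (log2 fold change 0.40), named after its values were seen, and SLC29A3.

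Among nucleoside and nucleotide kinases, 1 of 12 tested was called. UCK2, which phosphorylates uridine and cytidine, dropped by 0.83 on the log2 scale, from 3159 and 3097 fragments to 1605 and 1638 (edgeR adjusted p = 6.21e-07). With the adjusted p alone, 3 kinases were higher, named after their values were seen: the thymidine kinases TK1 (log2 fold change 0.49) and TK2 (0.50) and the diphosphate kinase NME3 (0.28). UCK2 and the diphosphate kinase NME1 were lower, NME1 at -0.34 (edgeR adjusted p = 0.00203) and also named after its values were seen. NME1 had a vehicle mean of 342 FPKM, where NME3 had 31.0 and 29.0 in the vehicle libraries, and the counts of NME1 are uncertain because it closely resembles its neighbour NME2 and the reads could be split between them. Among nucleotidases, which remove phosphate from nucleotides, 1 of 7 tested was called. NT5E, the cell surface enzyme CD73, had 99 and 102 fragments in vehicle and 217 and 226 after gemcitabine, a rise of 1.25 on the log2 scale ± 0.14 (SE, edgeR adjusted p = 7.33e-06). With the adjusted p alone 2 were higher, NT5E and NT5C1B, the latter with few fragments, against 18.5% of all tested genes. Then 2 were lower, NT5C (-0.25) and NT5C3B (-0.26), against 20.0%. These 3 further genes are named after their values were seen. Whether any of these changes bears on gemcitabine's activation was not tested.

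Among pyrimidine pool enzymes, 3 of 9 were called lower and 0 higher, with a median log2 fold change of -0.20. With the adjusted p alone 5 were lower, against 20.0% of all tested genes, and 1 was higher, against 18.5%. The higher one was TYMS (0.23), and CTPS1 (-0.32) and CTPS2 (-0.20) were lower beside the called genes, all named after their values were seen. DHODH, a step of new pyrimidine synthesis in mitochondria, fell from 269 and 277 fragments to 137 and 114 (log2 fold change -1.01). CAD, which starts that synthesis, fell by 0.78 on the log2 scale, and DCTPP1, which breaks down dCTP and its analogues, fell by 0.79. None of the 5 DNA polymerase genes was called, and with the adjusted p alone POLA2 was higher and POLA1 lower, both named after their values were seen.

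**Figure D5:**
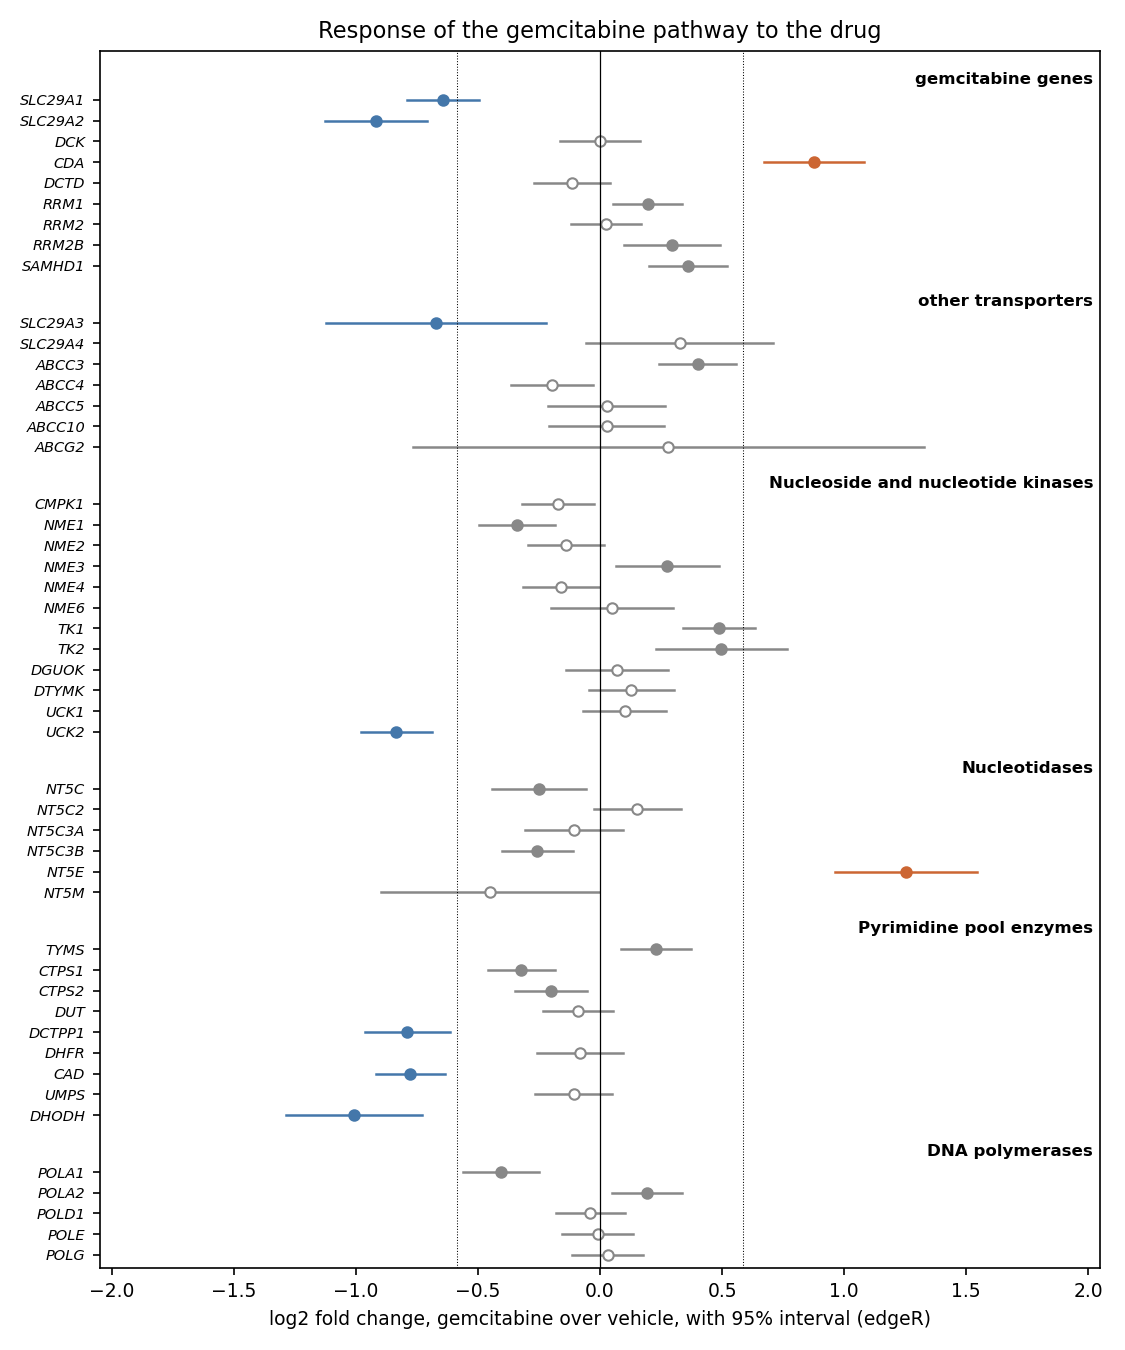
Log2 fold change of gemcitabine over vehicle with its 95% interval from edgeR for the 9 tested genes and for the tested genes of 5 further pathway lists with a mean of at least 10 fragments. Colours mark called genes, filled points an adjusted p under 0.05 and dotted lines the fold limit of 1.5; SLC29A1, SLC29A2, SLC29A3, UCK2, DCTPP1, CAD and DHODH were called lower and CDA and NT5E higher.

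Genes of S phase, targets of p53 and interferon-stimulated genes are set beside the 10, since RRM1 and RRM2 are made for DNA replication, RRM2B is a p53 target and SAMHD1 can be induced by interferon. Of 15 S phase genes, 7 were called lower and 0 higher, 12 were lower and 1 higher by the adjusted p alone, and the median log2 fold change was -0.58. Over all tested genes 4.42% were called lower, and 20.0% were lower and 18.5% higher by the adjusted p alone. MCM5, E2F1 and MCM6 had the largest called falls of the list, by 1.14, 0.93 and 0.84 on the log2 scale. The values of RRM1 and RRM2, at 0.19 and 0.025, stand beside these, and the difference between them and the list was not tested. Other S phase genes of the list also had values above 0: CDC6 (0.22), CCNA2 (0.13) and CDC45 (0.073), named after their values were seen. Values like those of RRM1 and RRM2 were thus not particular to them. Of 12 p53 targets, 5 were called higher, against 5.69% of all tested genes, and 0 lower, with a median of 0.49. The largest called rises were those of GDF15 (2.17), TP53INP1 (1.86) and CDKN1A (1.29), where RRM2B had 0.30. With the adjusted p alone 9 were higher, while MDM2 (-0.017), BBC3 (0.26) and ZMAT3 (-0.11), named after their values were seen, did not pass. The part of p53 in these changes was not tested. Of 10 interferon-stimulated genes, 8 were called higher, against 5.69%, and 0 lower, with a median of 1.44 and large called rises for IFIT2 (2.55) and IFIT3 (2.28), where SAMHD1 had 0.36. OAS1 was called too, but its 2 and 3 fragments in vehicle, against 14 and 9 after gemcitabine, are within the limit of 3 fragments, so its fold is not given. Whether the changes of RRM2B and SAMHD1 are tied to those of these lists was not tested.

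For each called gene, the 3 most alike were sought among 10009 others averaging 10 CPM or more, by the distance between centred log2 CPM over the 4 libraries. For SLC29A1 these were NOL8, FSTL3 and ATF4, at distances of 0.0058, 0.014 and 0.023. For SLC29A2 they included POLR1B and ZNF783, at 0.036 and 0.063. For CDA they were DENND2B, MUC13 and CALCOCO1, at 0.024, 0.041 and 0.046. With 4 libraries such a likeness amounts to a like change between the conditions and between replicates.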

How the data were processed

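RNA-seq was analysed for PANC1 cells with 2 vehicle and 2 gemcitabine libraries, and DNaseI-seq with 1 of each. Single-end reads were mapped by the authors with TopHat2 2.0.8 on hg19. They assigned them to Gencode protein-coding genes with Cuffdiff 2.0.2, and the deposited table holds estimated counts (fragments per gene, 86.8% of the values whole within 1e-06) and FPKM, which the authors obtained from Cuffdiff. 2 columns of scaled values were not used. The authors called DNaseI peaks with MACS at a p-value of 1e-05, and the deposited score is the log10 of each peak's p-value multiplied by minus 10.

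Rounded counts of genes that had 10 or more fragments in all were fitted with edgeR 4.0.16 in R 4.3.3 (quasi-likelihood, TMM, Benjamini-Hochberg over all 14854 genes), in place of Cuffdiff, with the study's fold and FPKM criteria for calls. Standard errors and 95% intervals were derived from the F statistic. Mean chi-square per gene between replicates was 2.17 for vehicle and 5.16 for gemcitabine, so all libraries were counted separately. On counts simulated from these libraries (14862 genes, 200 changed 2-fold, biological coefficient of variation 0.05) 100% of the changed genes were found, with 2.91% false calls. The changed genes were drawn from well-covered genes only, and the adjusted p alone was used. All genes and both conditions were given the same variation, unlike the real libraries. The simulation therefore does not give the power for genes with few fragments or for smaller changes. Within a condition the table indexes its libraries, and nothing links that index to the labelled replicates, so numbers here only tell libraries apart.

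Alternatives used DESeq2 1.42.0, limma 3.58.1 and other scalings, filters and library sets. Names came from Ensembl identifiers for 19619 genes and positions from a later Gencode annotation carried over to hg19, with a gene's canonical transcript giving its start. Promoter letters came from RefSeq, and 7 of the 10 genes matched. The 10 genes and all lists were chosen with earlier results of these data known. Beyond the 10, the text names per list the 3 largest called changes and per called gene the 3 most alike genes, of which 1 is not reported here, with other names marked.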

Additional observations from a re-analysis of the deposited data

How the results depend on the processing

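No paired analysis was possible because nothing links the table's library index to the labelled replicates. 845 genes were called higher and 656 lower. With the adjusted p alone these were 2751 and 2975, with library totals 1164 and 418, and without 1 library in turn 674 to 923 were higher and 594 to 771 lower. With limma on log2(FPKM + 1) they were 300 and 104, with a pseudocount of 0.1 428 and 178, and without the mean trend, chosen after seeing the data, 358 and 132. Without a filter limma called 0 and 0, where 3297 were higher and 1392 lower at an unadjusted p under 0.05. Of the 10 genes, 1 was called higher, 4 with the adjusted p alone and 0 by unfiltered limma, where 3 were higher and 3 lower unadjusted. 2 were called lower, 1 with library totals, 0 by limma with a pseudocount of 1 (3 unadjusted) or unfiltered, 1 with a pseudocount of 0.1 and 1 without the trend, and without 1 library in turn these stayed at 1 and 2. The log2 fold change of DCK, near 0, turned positive with DESeq2 size factors (0.001), library totals (0.11), no filter (0.0052), filterByExpr (0.0087), DESeq2 (0.0012), without vehicle replicate 2 (0.069), without gemcitabine replicate 2 (0.0024) and with limma (1.26, 1.29 with a pseudocount of 0.1, 1.26 unfiltered and 1.26 without the trend). RRM2 turned to -0.019 without gemcitabine replicate 2. The cause was not tested. Leaving out 1 library, the log2 fold change was -0.66 to -0.61 for SLC29A1, -0.97 to -0.85 for SLC29A2, 0.86 to 0.91 for CDA, -0.053 to 0.069 for DCK, -0.019 to 0.071 for RRM2, 0.15 to 0.24 for RRM1, 0.19 to 0.40 for RRM2B and 0.31 to 0.42 for SAMHD1. Of 117 values of the 9 genes under these alternatives, 80 kept direction and side of the adjusted p, 25 lost the threshold and 12 turned. Within 5 kb, 4 starts had a DNaseI peak in vehicle and 5 in gemcitabine, and at a p-value limit of 1e-10 2 and 3 had one within 1 kb. With 2 libraries per condition from 1 cell line, p-values measure only the spread between these libraries. In the edgeR test the spread of a single gene is moderated with that of all genes tested.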
